A study of Mus musculus with 12 samples.

Results

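The cornified envelope Lce and Sprr cluster was examined in RNA from the dorsal skin of Balb/C mice. Its members were the genes whose symbol begins with Lce or Sprr and a digit, together with Flg, Flg2, Ivl, Hrnr, Rptn, Crnn, Crct1 and Kprp. The deposited table of 36400 genes held 46 members, and 44 of them were among the 21890 genes whose average over the libraries reached 0.1 FPKM (fragments scaled for transcript length and library size) and which were tested. Sprr2c-ps and Sprr3 fell below this level and were not tested. The 46 comprised 14 Lce1, 6 Lce3 and 1 Lce6 gene, 2 Sprr1, 13 Sprr2, 1 Sprr3 and 1 Sprr4 gene, 5 genes of the S100-fused type (Flg, Flg2, Hrnr, Rptn and Crnn), and Ivl, Crct1 and Kprp. The deposited table named no Lce2 gene, so Lce1 stood alone in the contrast with Lce3.

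The study treated 6-week-old mice with the hapten DNCB to induce atopic dermatitis-like lesions. Human umbilical cord mesenchymal stem cells (MSCs) were given after sensitization, while the DNCB challenges continued. Skin was collected on day 30 from 3 mice in each of 4 groups, with 1 library per mouse. Controls had the solvent only (acetone and olive oil), while DNCB mice were sensitized at 1% and challenged at 0.5% DNCB. The scMSC and scivMSC groups received the same DNCB and, per injection, 2000000 MSCs, as 100 µL by the subcutaneous route in scMSC and, in scivMSC, as 50 µL by that route plus 50 µL through the tail vein. The backs of all mice, controls included, were shaved and treated with hair removal cream. The methods describe no injection without cells for the DNCB group, so the cells and the injection cannot be told apart. Whole dorsal skin was sequenced, and in such bulk samples fewer cells of a type and less RNA per cell cannot be told apart.

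The cornified envelope is the cross-linked protein shell that replaces the plasma membrane of keratinocytes as they die to form the outer skin barrier. Involucrin is laid down early as a scaffold, and loricrin, the small proline-rich (Sprr) proteins and the late cornified envelope (Lce) proteins are then joined to it by transglutaminases, while filaggrin and related S100-fused proteins bundle keratin and fill the cell beneath it. Most of these genes lie side by side in the epidermal differentiation complex. In human skin, genes of the LCE1 and LCE2 groups are typical of intact epidermis, and LCE3 and several SPRR genes are known for their induction after barrier injury and in inflamed skin.

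In these data the members lay on chromosome 3 of GRCm38, within chr3:92215799-93399442, a span of 1184 kb. The Sprr2 genes came first, followed by Sprr1b, Sprr3, Sprr1a, Sprr4, Ivl and Lce6a, then 13 Lce1 genes and Kprp within 204.8 kb, the 6 Lce3 genes within 68.1 kb, Crct1, Lce1m, and the S100-fused type genes. Lce1m stood apart from the other Lce1 genes, on the far side of the Lce3 block and 2.1 kb from Crct1.

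The libraries held between 63877153 and 75134001 estimated counts, where about 4 counts stand for 1 fragment, and members took 0.281% to 1.02% of them. Calls required an adjusted p (Benjamini-Hochberg, over all genes tested) under 0.05 in edgeR's quasi-likelihood test and an absolute log2 fold change over 1; every adjusted p below is from this fit unless another tool is named, and each fold change carries the standard error of the fit. With 3 libraries against 3, an exact permutation test of 1 gene cannot go below p = 0.1. Keratinocyte markers were high in all libraries, with 2061 to 6219 FPKM of Krt10. The libraries also carried skeletal muscle RNA, whose 8 markers summed to 18649.8 to 26101 FPKM in control and 4816 to 6687 in DNCB. The library of scivMSC replicate 2 stood apart from the other scivMSC libraries in Lce3, several Sprr genes and stress keratins. Several results that rest on it, though not all, are given with and without it.

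The members divided by subfamily. Every Lce1 gene was lower in DNCB skin than in each of the 3 other groups, whereas Sprr2 and Lce3 genes stood higher in DNCB than in most other libraries. Between DNCB and control, 30 of 44 members were called, 12 higher and 18 lower in DNCB, where 14.2% of all tested genes were called (6.59% higher and 7.57% lower). Between DNCB and scMSC, 38 members were called, 17 higher and 21 lower, against 8.5% of all genes (3.84% and 4.66%). Between DNCB and scivMSC, 24 members were called, 6 higher and 18 lower, against 5.46% (2.33% and 3.13%). These 3 comparisons share the DNCB libraries.

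**Figure D1:**
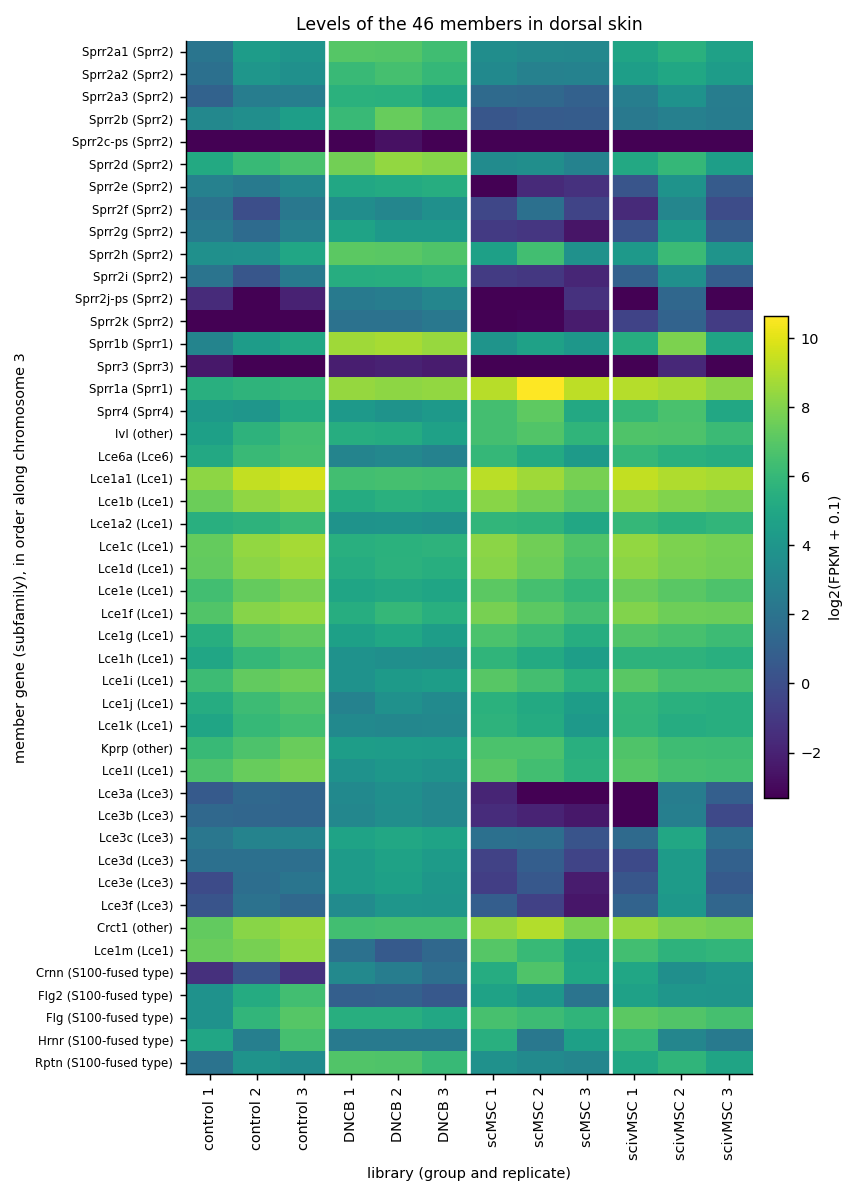
Level of each of the 46 members, as log2(FPKM + 0.1), in the 12 libraries; rows follow the order of the genes along chromosome 3 and columns are grouped by treatment. The block of Lce1 genes was darker in the 3 DNCB libraries, and the Sprr2 and Lce3 blocks were brighter there; scivMSC replicate 2 was also brighter in Lce3 than the other scivMSC libraries.

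The 18 members called lower against control were the 14 Lce1 genes, Lce6a, Kprp, Crct1 and Flg2. All 18 were called lower in both remaining comparisons too, and all 18 had every DNCB library below all 9 other libraries. By contrast 6 members, Sprr2a1, Sprr2a2, Sprr2a3, Sprr2b, Sprr2d and Sprr2i, were called higher in all 3 comparisons. Among all tested genes the groups did not overlap, with DNCB lower, for 16.1% against control, 16% against scMSC and 16.4% against scivMSC. These are shares of single comparisons. The share of all tested genes called in all 3 comparisons, or below all 9 other libraries, was not computed.

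**Figure D2:**
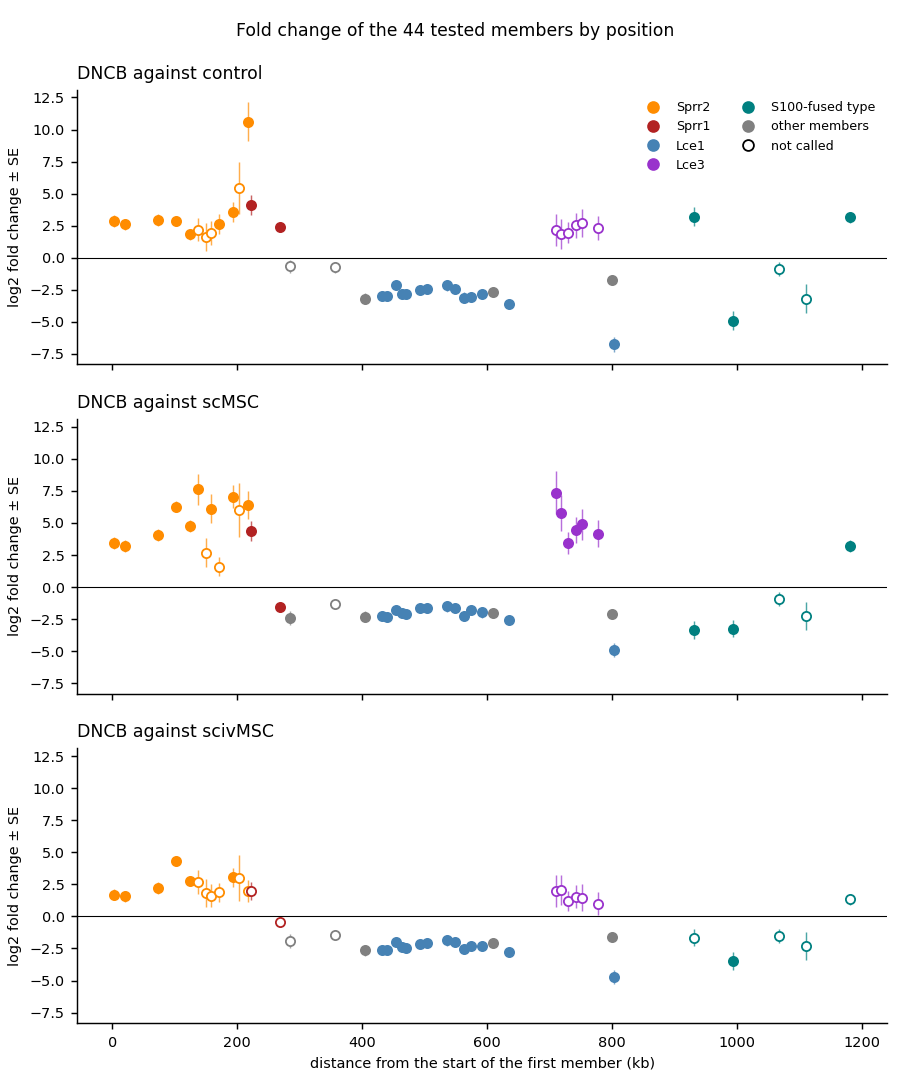
Log2 fold change (± SE of the edgeR fit) of the 44 tested members against their distance in kb from the start of the first member, for DNCB against control, scMSC and scivMSC; filled points were called and open points were not. Sprr2 and Lce3 points lay above 0 and Lce1 points below 0 in all 3 panels, with Lce1m lowest, and Sprr1a and Crnn lay above 0 against control and below 0 against scMSC. The height of the Sprr2k point against control, where it was listed at 0, depends on the prior count of the fit.

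Summed over its 14 genes, Lce1 stood at 1548, 2926 and 3861 FPKM in the control libraries and 379, 451 and 401 in the DNCB libraries. The sums were 2491, 1683 and 966 in scMSC and 2719.6, 2041 and 1862 in scivMSC. The DNCB mean was thus 6.77-fold below control, 4.17-fold below scMSC and 5.38-fold below scivMSC, and the DNCB libraries were the closest to each other of any group. The median log2 fold change over the 14 genes was -2.84 relative to control, -2.02 to scMSC and -2.37 to scivMSC, where the median of all tested genes was 0.02, -0.02 and -0.02.

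Lce1a1, the most abundant Lce1 gene, stood at 309, 641 and 853 FPKM in control, 86.1, 90.8 and 85.2 in DNCB, 584, 401 and 222 in scMSC and 661, 495 and 449 in scivMSC. All DNCB values lay below every other library. Its log2 fold change was -2.95 ± 0.39 relative to control, -2.22 ± 0.38 to scMSC and -2.62 ± 0.38 to scivMSC (adjusted p = 0.000895, 0.00458 and 0.00527). Lce1b had 178, 315 and 413 FPKM in control, 37.7, 46.99 and 42.1 in DNCB, 286, 201 and 131 in scMSC and 327, 252 and 218 in scivMSC, and Lce1c 159, 332 and 427 FPKM in control, 45.1, 48.1 and 51.9 in DNCB, 291, 196 and 109 in scMSC and 328, 234 and 211 in scivMSC. Both followed the same order as Lce1a1, with control replicate 1 the lowest control library and scMSC replicate 3 the lowest scMSC library. Lce1b differed by -3.01 ± 0.33 from control and Lce1c by -2.84 ± 0.39 (adjusted p = 0.000514 and 0.00103). Lce1a1 held 19.9, 21.9 and 22.1% of the summed Lce1 FPKM in control and 22.7, 20.1 and 21.2% in DNCB, so its share differed little while the sum differed by several fold.

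Lce1m had the largest differences among the Lce1 genes. It stood at 175, 221 and 325 FPKM in control, 3.63, 1.45 and 2.52 in DNCB, 125, 66.9 and 28.8 in scMSC and 85.5, 51.2 and 58.7 in scivMSC. The DNCB values were far below all others, and no control library overlapped the scivMSC libraries. Lce1m had a log2 fold change of -6.74 ± 0.60 relative to control, -4.88 ± 0.55 to scMSC and -4.69 ± 0.54 to scivMSC (adjusted p = 0.000340, 0.00162 and 0.00299), whereas the 13 other Lce1 genes ran from -3.62 to -2.14, -2.57 to -1.49 and -2.74 to -1.87. The next largest change was that of Lce1l, -3.62 ± 0.35 against control (adjusted p = 0.000431). Lce1m made up 11.3, 7.55 and 8.42% of the summed Lce1 FPKM in control and 0.957, 0.321 and 0.628% in DNCB. Its share was 5.02, 3.97 and 2.98% in scMSC and 3.14, 2.51 and 3.15% in scivMSC, below that of every control library.

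Lce6a, the single Lce6 gene, had 34.4, 70.7 and 90.7 FPKM in control, 7.82, 9.10 and 7.15 in DNCB, 62.9, 37.2 and 19.1 in scMSC and 63.3, 46.8 and 40.8 in scivMSC. It followed Lce1, with a log2 fold change of -3.19 ± 0.43, -2.32 ± 0.42 and -2.65 ± 0.42 (adjusted p = 0.000980, 0.00576 and 0.00661 against control, scMSC and scivMSC). Kprp, the gene of a keratinocyte proline-rich protein that lies among the Lce1 genes, stood at 66.8, 106 and 175 FPKM in control, 21.8, 20.5 and 20.3 in DNCB, 102, 104 and 43.7 in scMSC and 109.8, 77.9 and 76.5 in scivMSC. Its log2 differences were -2.64 ± 0.38, -2.03 ± 0.37 and -2.08 ± 0.37 in the same order (adjusted p = 0.00118, 0.00601 and 0.00979). Crct1, which codes for a small cysteine-rich protein and neighbours Lce1m, had 153, 279.6 and 366 FPKM in control, 85.8, 92.2 and 89.98 in DNCB, 337, 527 and 233 in scMSC and 347, 239 and 211 in scivMSC. Its change was smaller than that of Lce1m, at -1.75 ± 0.35, -2.07 ± 0.35 and -1.57 ± 0.35 (adjusted p = 0.00492, 0.00467 and 0.0227), and its call against scivMSC was lost without any 1 DNCB library or scivMSC replicate 1.

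The 14 calls of Lce1 against control held when any 1 of the 12 libraries was left out. Against scMSC, 11 to 14 of the 14 genes remained called without 1 library, and the genes that lost their call included Lce1g, whose adjusted p of 0.0383 was the highest of the 14. Without DNCB replicate 1 or 3, 11 Lce1 genes were called against scMSC and 12 against scivMSC, and without DNCB replicate 2 it was 12 in both.

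The Lce3 genes, which lie between Lce1l and Lce1m, had their highest group mean in DNCB, where Lce1 was lowest. Their summed level was 13.9, 22.6 and 22.3 FPKM in control, 96.5, 123 and 98.2 in DNCB, 6.66, 6.88 and 2.02 in scMSC and 6.74, 103 and 11.5 in scivMSC. The DNCB mean was 5.39-fold above control and 20.4-fold above scMSC. In scivMSC, replicate 2 stood at the DNCB level and the 2 other libraries below every control library.

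Lce3c, the most abundant of the 6, had 4.57, 7.42 and 7.80 FPKM in control, 27.3, 32.5 and 27.6 in DNCB, 3.49, 3.13 and 1.12 in scMSC and 2.70, 33.03 and 3.24 in scivMSC. Lce3d had 3.40, 3.40 and 3.30 FPKM in control, 20.2, 25.7 and 20.2 in DNCB, 0.563, 1.70 and 0.624 in scMSC and 0.788, 20.5 and 1.89 in scivMSC. For both genes all DNCB libraries lay above all control and scMSC libraries, and scivMSC replicate 2 fell among or above the DNCB libraries. Lce3e had 0.823, 3.25 and 4.23 FPKM in control, 20.2, 24.4 and 16.8 in DNCB, 0.507, 1.34 and 0.110 in scMSC and 1.21, 20.2 and 1.45 in scivMSC, with the same order of the groups. All 6 Lce3 genes had every DNCB library above every control library, which held for 31.7% of all tested genes.

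Against control none of the 6 passed the adjusted threshold, although 4 had an unadjusted p under 0.05. Their log2 fold changes ran from 1.85 to 2.71, with adjusted p-values of 0.0753 to 0.274. DESeq2 called 2 of them, limma on log2(FPKM + 0.1) called 3, and edgeR called 3 without scivMSC replicate 2 and all 6 when only the control and DNCB libraries were fitted.

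Against scMSC all 6 were called. The log2 fold change was 3.46 ± 0.87 for Lce3c, 4.45 ± 1.04 for Lce3d, 4.89 ± 1.22 for Lce3e and 4.16 ± 1.05 for Lce3f (adjusted p = 0.0256, 0.0181, 0.0249 and 0.0263). Lce3a and Lce3b had larger fitted changes of 7.36 ± 1.68 and 5.77 ± 1.41 (adjusted p = 0.0162 and 0.0223). They were at the floor of 3 fragments in every scMSC library, with at most 8 and 12 estimated counts, so the size of their change depends on the prior count of the fit. The number called fell to 3, 2 and 4 without DNCB replicate 1, 2 and 3, to 2 without scMSC replicate 1 or 2, and to 0 without scMSC replicate 3.

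Against scivMSC no Lce3 gene was called with edgeR or DESeq2, and none had an unadjusted p under 0.05 with edgeR; the differences ran from 1.00 to 2.05. Without scivMSC replicate 2, 4 of the 6 were called, among them Lce3d at 3.98 ± 0.62 and Lce3c at 3.25 ± 0.49 (adjusted p = 0.00603 and 0.00531). Lce3c to Lce3f share between 24.1% and 43.0% of their 100-base windows with another member, so reads may have been divided between them, and the values of single Lce3 genes are uncertain.

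The balance of Lce3 and Lce1 compares genes of the same library. Taken as the mean of log2(FPKM + 0.1) over the 6 Lce3 genes minus the mean over the 14 Lce1 genes, it was -0.45, -0.23 and -0.46 in the DNCB libraries and -5.39, -5.51 and -5.97 in the control libraries. It was -7.42, -7.00 and -7.50 in scMSC and -7.81, -2.90 and -5.78 in scivMSC. The subfamilies stood closest to each other in the DNCB libraries, and scivMSC replicate 2 lay between them and the remaining libraries. The mean was -5.62 ± 0.30 for control, -0.38 ± 0.13 for DNCB, -7.31 ± 0.27 for scMSC and -5.50 ± 2.47 for scivMSC (SD, n = 3). As a share of the summed FPKM of both subfamilies, Lce3 took 20.3, 21.4 and 19.7% in DNCB and 0.892, 0.765 and 0.575% in control. The share was 0.267, 0.407 and 0.209% in scMSC and 0.247, 4.80 and 0.613% in scivMSC. The members were chosen with earlier results of these data known, so the balance is given as a description and was not tested.

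**Figure D3:**
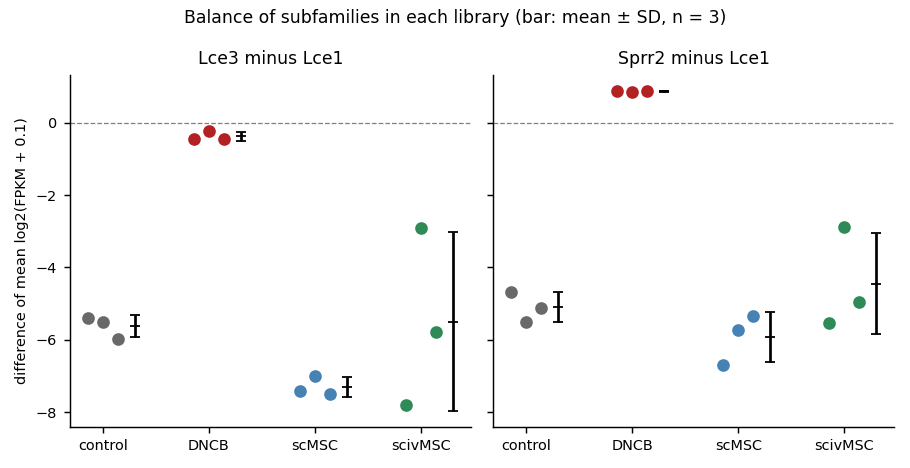
Mean log2(FPKM + 0.1) of Lce3 (left) and of Sprr2 (right) minus that of Lce1 in each of the 12 libraries; points are replicates 1 to 3 from left to right, and the bars give mean ± SD over 3 libraries. The 3 DNCB points lay near 0 for Lce3 and near 0.88 for Sprr2, above all other libraries, and scivMSC replicate 2 was the highest of the 9 others in both panels.

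The Sprr2 genes followed Lce3 rather than Lce1. Their summed level was 86.6, 144 and 212 FPKM in control, 776, 1007 and 795 in DNCB, 61.2, 121 and 42.1 in scMSC and 119.7, 294 and 102 in scivMSC. The DNCB mean was 5.82-fold above control, 11.5-fold above scMSC and 5.01-fold above scivMSC, or 7.76-fold without scivMSC replicate 2. Of the 12 tested Sprr2 genes, 8 were called higher in DNCB than in control, 9 higher than in scMSC and 6 higher than in scivMSC, and none was called lower. Their median log2 fold change was 2.73, 5.37 and 2.09. In 10 of the 12 genes every DNCB library lay above all 9 other libraries. Over all tested genes, the share with DNCB above a single group was 31.7% for control, 17.1% for scMSC and 16.3% for scivMSC. The share above all 9 other libraries was not computed.

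Sprr2d, the most abundant of the subfamily, had 35.5, 66.8 and 99.8 FPKM in control, 204, 329.9 and 271 in DNCB, 10.4, 11.8 and 7.22 in scMSC and 34.1, 62.6 and 22.5 in scivMSC. DNCB stood highest and scMSC lowest, with no overlap of either with control. Its log2 fold change was 1.83 ± 0.41 relative to control, 4.74 ± 0.47 to scMSC and 2.76 ± 0.42 to scivMSC (adjusted p = 0.00845, 0.00108 and 0.00581). Sprr2b showed the same order more sharply, at 9.03, 11.8 and 22.2 FPKM in control, 69.7, 169.9 and 102 in DNCB, 1.25, 1.51 and 1.59 in scMSC and 4.84, 6.69 and 5.66 in scivMSC. It was higher in DNCB by 2.83 ± 0.37, 6.26 ± 0.44 and 4.31 ± 0.40 in the same order (adjusted p = 0.000895, 0.000129 and 0.00118). Sprr2i had 4.08, 1.22 and 5.01 FPKM in control, 41.3, 42.9 and 52.02 in DNCB, 0.428, 0.372 and 0.178 in scMSC and 1.92, 12.9 and 1.73 in scivMSC. Its differences were 3.55 ± 0.77, 7.06 ± 0.93 and 3.06 ± 0.75 (adjusted p = 0.00728, 0.00209 and 0.0328).

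Sprr2a1, Sprr2a2 and Sprr2a3 share sequence. In another member occur 92.5% of the 100-base windows of Sprr2a1, 92.8% of those of Sprr2a2 and 36.2% of those of Sprr2a3. Sprr2a1 and Sprr2a2 also overlap on the same strand, so their counts are uncertain and are best read as a sum. Sprr2a1 alone had 4.13, 20.5 and 15.3 FPKM in control, 125, 121 and 81.8 in DNCB, 11.2, 9.33 and 9.07 in scMSC and 28.8, 46.8 and 25.7 in scivMSC. The 3 genes together stood at 9.50, 42.7 and 34.1 FPKM in control, 243, 258 and 173 in DNCB, 23.6, 18.7 and 18.3 in scMSC and 57.7, 92.03 and 52.7 in scivMSC. DNCB was above all other libraries, and each scivMSC library was above each control and scMSC library. Sprr2a3 had a log2 fold change of 2.94 ± 0.45 relative to control, 4.08 ± 0.48 to scMSC and 2.23 ± 0.44 to scivMSC (adjusted p = 0.00152, 0.00180 and 0.0149). Against scivMSC the adjusted p of Sprr2a1 and Sprr2a2 was 0.0452 and 0.0493, and both calls were lost with limma, with scaling by library size alone and without any 1 of 9 libraries. The call of Sprr2a3 against scivMSC was lost when replicate 1 or 2 of DNCB, or 1 or 3 of scivMSC, was left out. The call of Sprr2i against scivMSC was lost without any 1 DNCB library or scivMSC replicate 1 or 3.

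Sprr2h took a larger share of Sprr2 in scMSC than in control. It had 12.6, 12.98 and 30.04 FPKM in control, 138, 134 and 112 in DNCB, 24.5, 84.6 and 13.4 in scMSC and 18.2, 73.6 and 14.8 in scivMSC, and it made up 39.96, 69.9 and 31.9% of the summed Sprr2 FPKM in scMSC but 14.5, 8.98 and 14.2% in control. Sprr2h was above control in DNCB by 2.63 ± 0.76 (adjusted p = 0.0273), a call that was lost without any 1 of 5 libraries (control replicate 1 or 2, or any DNCB replicate). The difference of 1.58 ± 0.73 from scMSC was not called (adjusted p = 0.206). Sprr2e, at 6.83, 5.31 and 9.12 FPKM in control, 32.96, 36.4 and 40.8 in DNCB, 0, 0.216 and 0.291 in scMSC and 1.20, 14.4 and 1.52 in scivMSC, was higher in DNCB than in scMSC by 7.63 ± 1.20 (adjusted p = 0.00334), while the difference of 2.20 ± 0.90 from control did not pass the threshold (adjusted p = 0.101). Without scivMSC replicate 2 the adjusted p of Sprr2e against control was 0.0217, and with all libraries DESeq2 and limma gave 0.0389 and 0.0429. Sprr2k was listed at 0 in all 3 control libraries, at 3.67, 3.69 and 4.75 FPKM in DNCB and at 0.587, 2.10 and 0.450 in scivMSC. Measured against the floor of 3 fragments per library, the DNCB mean was at least 15.5-fold above control and the scivMSC mean at least 4.04-fold. The scivMSC bound rests largely on replicate 2 and was not computed without it. The median of Sprr2 in DNCB against control does not move when Sprr2k is set to its bound of 15.5-fold, since Sprr2k stays above the median.

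Leaving out scivMSC replicate 2 raised the Sprr2 genes called against scivMSC from 6 to 10 and those called against control from 8 to 11. In that library Sprr2g stood well above the rest of its group, where it had 1.04, 18.7 and 1.54 FPKM in scivMSC replicates 1 to 3. Without DNCB replicate 1, DNCB replicate 2, scivMSC replicate 1 or scivMSC replicate 3, the count against scivMSC was 2.

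The Sprr1 genes parted from each other. Sprr1b had 7.66, 20.95 and 33.2 FPKM in control, 405, 439.7 and 355 in DNCB, 14.9, 25.5 and 16.6 in scMSC and 41.2, 238 and 28.7 in scivMSC. It stood high in DNCB and low in control and scMSC, and scivMSC replicate 2 lay between DNCB and all the rest. Its log2 fold change was 4.11 ± 0.79 against control and 4.36 ± 0.80 against scMSC (adjusted p = 0.00401 and 0.00609). Against scivMSC it was 1.99 ± 0.72 and was not called (adjusted p = 0.123), and without scivMSC replicate 2 it was 3.49 ± 0.55 (adjusted p = 0.00600). With all libraries kept, DESeq2 and limma called Sprr1b against scivMSC, at 2.01 and 2.60 (adjusted p = 0.0194 and 0.0448).

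Sprr1a instead had 44.6, 53.9 and 60.9 FPKM in control, 342, 302 and 324 in DNCB, 568, 1584 and 614 in scMSC and 536, 454 and 299.5 in scivMSC. It stood higher in DNCB than in control and higher still in scMSC. Sprr1a had a log2 fold change of 2.42 ± 0.39 relative to control, -1.57 ± 0.38 to scMSC and -0.41 ± 0.37 to scivMSC (adjusted p = 0.00174, 0.0206 and 0.574). The lower level against scMSC was lost as a call without any 1 of the 3 DNCB libraries and when only the DNCB and scMSC libraries were fitted. Without scMSC replicate 2 the difference was -0.84, under the fold required of a call. Relative to control, Sprr1a was higher by 3.99 ± 0.42 in scMSC and 2.83 ± 0.39 in scivMSC (adjusted p = 0.000777 and 0.00441). The ratio of Sprr1a to Sprr1b in FPKM was 5.83, 2.57 and 1.83 in the control libraries and 0.845, 0.688 and 0.913 in DNCB. In scMSC it was 38.2, 62.2 and 37.1 and in scivMSC 13.02, 1.91 and 10.4. Sprr1b exceeded Sprr1a in the DNCB libraries alone among the 12.

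**Figure D4:**
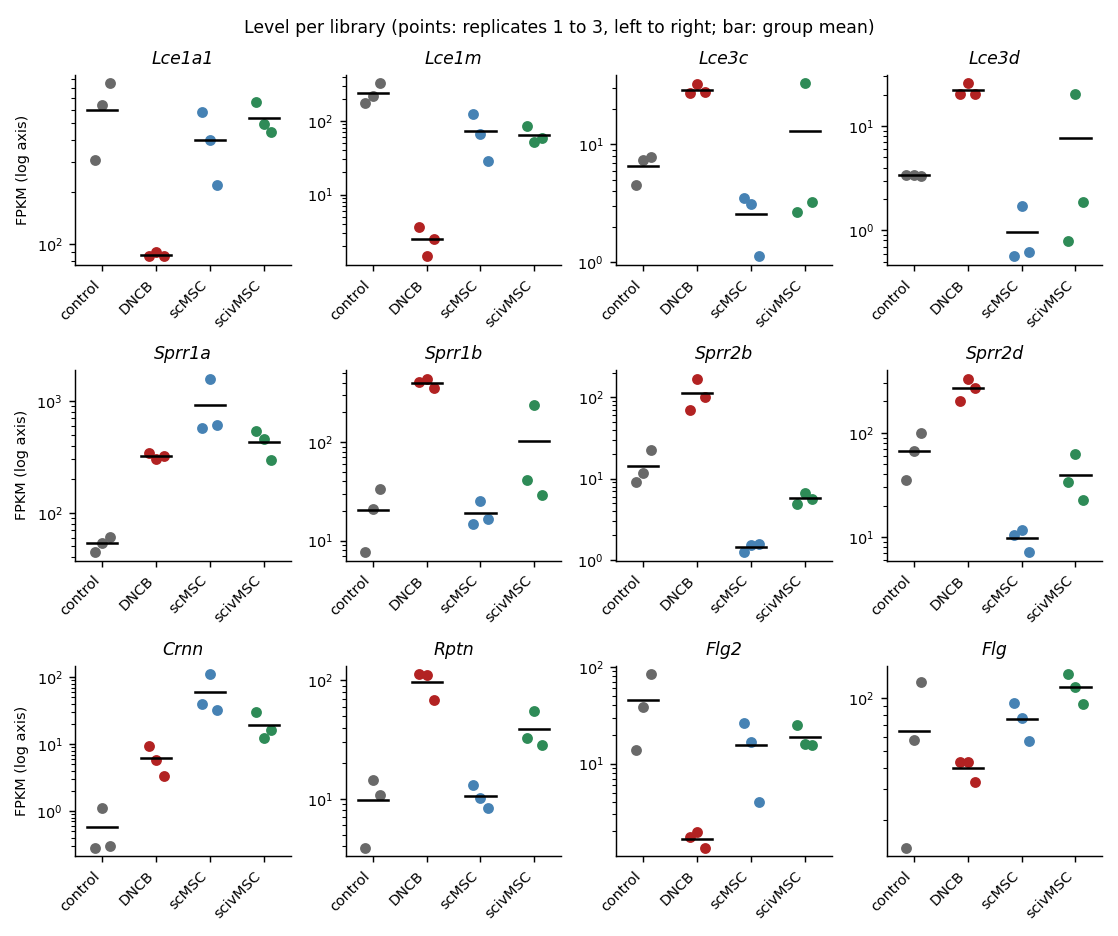
FPKM (log axis) of 12 members in each library, by group; points are replicates 1 to 3 from left to right and bars are group means. Lce1a1, Lce1m and Flg2 were lowest in DNCB, Lce3c, Lce3d, Sprr1b, Sprr2b, Sprr2d and Rptn had their highest group mean in DNCB, Sprr1a and Crnn had theirs in scMSC, and the DNCB and control libraries overlapped for Flg.

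Sprr4 had 18.9, 15.8 and 38.2 FPKM in control, 18.7, 14.1 and 18.4 in DNCB, 87.4, 146 and 33.7 in scMSC and 61.9, 99.2 and 32.9 in scivMSC. The difference from control was not called (-0.67 ± 0.53, adjusted p = 0.394). Sprr4 was lower in DNCB than in scMSC, at -2.43 ± 0.55 (adjusted p = 0.0157), and the difference of -1.91 ± 0.54 from scivMSC was not called (adjusted p = 0.0555). The call against scMSC was lost without any 1 DNCB library or scMSC replicate 2. Against scivMSC, Sprr4 was called with DESeq2 (adjusted p = 0.00437) and in other settings, among them without scMSC replicate 2 or 3. Sprr3, untested, was listed at 0.0852, 0 and 0 FPKM in control, 0.124, 0.150 and 0.110 in DNCB, 0, 0 and 0 in scMSC and 0, 0.207 and 0 in scivMSC, with at most 21 estimated counts in a library.

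The genes of the S100-fused type carry an S100-like domain followed by long repeats and lie at the far end of the cluster. They did not move as a group. Against control 2 were called higher in DNCB (Rptn and Crnn) and 1 lower (Flg2), and Flg and Hrnr were not called.

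Flg, which codes for profilaggrin, had 13.9, 57.9 and 123 FPKM in control, 43.3, 42.99 and 32.9 in DNCB, 94.1, 76.7 and 56.7 in scMSC and 137, 117 and 92.5 in scivMSC. The control libraries spanned a wide range that enclosed the DNCB values, with control replicate 1 the lowest of all 12. Every DNCB library of Flg lay below every scMSC and scivMSC library, a separation that 16% and 16.4% of all tested genes showed. Its log2 fold change was -0.87 ± 0.54 relative to control, -0.96 ± 0.54 to scMSC and -1.54 ± 0.55 to scivMSC, and none passed the threshold (adjusted p = 0.274, 0.311 and 0.116). Without control replicate 1 the difference from control was -1.38 with an adjusted p of 0.0161. Flg was called against scivMSC with DESeq2 (adjusted p = 0.0272). With edgeR it was called without control replicate 1 (adjusted p = 0.0169) and when only the DNCB and scivMSC libraries were fitted (adjusted p = 0.0145). Flg2, coding for the related filaggrin-2 protein, had 13.99, 38.3 and 84.04 FPKM in control, 1.74, 1.94 and 1.36 in DNCB, 26.1, 16.7 and 3.98 in scMSC and 24.97, 16.1 and 15.5 in scivMSC. All DNCB libraries lay below all others, with log2 differences of -4.91 ± 0.75, -3.23 ± 0.69 and -3.49 ± 0.70 (adjusted p = 0.00146, 0.0125 and 0.0160 against control, scMSC and scivMSC). The call of Flg2 was lost against scMSC without DNCB replicate 1 or 3, and against scivMSC without any 1 DNCB library or scivMSC replicate 1. The ratio of Flg to Flg2 in FPKM was 0.996, 1.51 and 1.47 in control and 24.9, 22.2 and 24.3 in DNCB. It was 3.61, 4.60 and 14.2 in scMSC and 5.50, 7.26 and 5.98 in scivMSC, between the 2 other groups.

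Hornerin (Hrnr), a further filaggrin-like protein, had 30.1, 6.37 and 90.96 FPKM in control, 5.12, 5.14 and 5.06 in DNCB, 43.99, 4.70 and 24.1 in scMSC and 61.9, 8.22 and 5.22 in scivMSC. The spread within groups was wide, and the difference of -3.20 ± 1.12 from control was not called (adjusted p = 0.0591). Ivl, which codes for the involucrin scaffold, had 23.9, 51.1 and 83.6 FPKM in control, 41.9, 38.5 and 25.2 in DNCB, 87.3, 117 and 54.9 in scMSC and 109, 108 and 73.1 in scivMSC. Every DNCB library lay below every scMSC and scivMSC library, yet the differences of -1.33 ± 0.41 and -1.46 ± 0.41 missed the threshold (adjusted p = 0.0574 and 0.0538), as did that of -0.75 ± 0.40 from control (adjusted p = 0.205). DESeq2 gave adjusted p-values of 0.00995 and 0.00619 against scMSC and scivMSC for Ivl, and 0.01004 against control for Hrnr. Groups that do not overlap, with DNCB lower, make up 16% and 16.4% of all tested genes in those 2 comparisons.

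Repetin (Rptn) was highest in DNCB. It had 3.88, 14.5 and 10.8 FPKM in control, 113, 110.5 and 68.6 in DNCB, 13.1, 10.3 and 8.34 in scMSC and 32.4, 55.04 and 28.4 in scivMSC. DNCB lay above all other libraries, and each scivMSC library lay above each control and scMSC library. Its log2 fold change was 3.14 ± 0.45 relative to control, 3.18 ± 0.45 to scMSC and 1.34 ± 0.42 to scivMSC (adjusted p = 0.00118, 0.00239 and 0.0804). Without scivMSC replicate 2 the adjusted p against scivMSC was 0.0588. Rptn was called against scivMSC with DESeq2 (adjusted p = 0.0131). With edgeR it was called without control replicate 1 (adjusted p = 0.0300) and when only the DNCB and scivMSC libraries were fitted (adjusted p = 0.0490). Rptn overlaps Gm37857 on the same strand and Gm37245 on the other, which had mean levels of 0.232 and 0.0585 FPKM.

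Cornulin (Crnn) was highest in scMSC. It had 0.285, 1.13 and 0.298 FPKM in control, 9.27, 5.86 and 3.36 in DNCB, 39.9, 111 and 32.2 in scMSC and 30.2, 12.3 and 16.2 in scivMSC. Control was lowest, DNCB intermediate, and every scMSC and scivMSC library lay above every DNCB library. Crnn had a log2 fold change of 3.21 ± 0.72 relative to control, -3.36 ± 0.70 to scMSC and -1.67 ± 0.66 to scivMSC (adjusted p = 0.00832, 0.0109 and 0.154). Relative to control it was higher by 6.57 ± 0.82 in scMSC and 4.88 ± 0.77 in scivMSC (adjusted p = 0.00117 and 0.00546).

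Because the Sprr and Lce genes lie together but moved apart, their promoters were read from RefSeq (GRCm38.p6), where 40 of the 46 members had an entry of 250 bases before the start of transcription and 50 after it. The letters TGANTCA, which the transcription factor AP-1 can bind, were searched on both strands along with GGGTGTG (KLF), AGGAAG (ETS) and TATAAA, the element near the start of many genes. TGANTCA occurred in 35.0% of the 40 member promoters and in 7.81% of all 32851 promoters of the same length. The 14 members that held it were both Sprr1 genes, 7 of 10 Sprr2 genes, Flg, Flg2, Rptn and Crnn of the S100-fused type, and Ivl. It was not among the letters of Sprr2a1, Sprr2a2 and Sprr2a3, nor of any of the 13 Lce1 and 6 Lce3 promoters. TATAAA occurred in 47.5% of members and 13.6% of all promoters, AGGAAG in 55.0% and 35.4%, and GGGTGTG in 5.0% and 7.95%. No member promoter held overlapping matches of different motifs. Sprr2 promoters are related to each other by descent and are not independent, and a match is a description of letters, not of binding.

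The upstream 250 bases are shown for 8 members, 5′ to 3′ on the strand of the gene and ending just before the RefSeq start, with TGANTCA and TATAAA matches in capitals. Sprr1b, Sprr2b and Rptn were highest in DNCB, and Flg2 was lowest there. Sprr1a and Crnn were highest in scMSC and were called higher in DNCB than in control. All 6 hold TGANTCA. Lce1m and Lce3d, which were called in opposite directions between DNCB and scMSC, hold none.
Sprr1b (chr3:92438780-92439029, minus strand): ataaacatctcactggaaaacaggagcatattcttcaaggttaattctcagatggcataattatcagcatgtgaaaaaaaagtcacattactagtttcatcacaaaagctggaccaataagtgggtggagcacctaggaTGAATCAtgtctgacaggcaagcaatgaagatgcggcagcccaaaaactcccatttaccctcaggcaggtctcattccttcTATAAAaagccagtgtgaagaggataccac
Sprr2b (chr3:92316455-92316704, plus strand): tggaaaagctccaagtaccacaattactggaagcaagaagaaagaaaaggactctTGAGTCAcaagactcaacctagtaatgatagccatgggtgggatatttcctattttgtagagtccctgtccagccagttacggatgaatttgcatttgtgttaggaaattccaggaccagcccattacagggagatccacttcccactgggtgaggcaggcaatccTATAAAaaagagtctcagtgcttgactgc
Rptn (chr3:93393449-93393698, plus strand): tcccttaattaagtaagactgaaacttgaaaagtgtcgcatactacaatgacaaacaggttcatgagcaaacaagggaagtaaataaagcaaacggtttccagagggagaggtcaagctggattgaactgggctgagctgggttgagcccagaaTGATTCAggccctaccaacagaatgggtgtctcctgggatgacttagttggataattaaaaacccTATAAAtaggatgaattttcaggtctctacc
Sprr1a (chr3:92485882-92486131, minus strand): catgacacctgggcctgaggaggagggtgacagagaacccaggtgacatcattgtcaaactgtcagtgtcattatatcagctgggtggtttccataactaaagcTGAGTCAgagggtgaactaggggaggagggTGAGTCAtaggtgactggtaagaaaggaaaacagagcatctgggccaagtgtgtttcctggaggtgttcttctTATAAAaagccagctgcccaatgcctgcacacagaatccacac
Crnn (chr3:93144539-93144788, plus strand): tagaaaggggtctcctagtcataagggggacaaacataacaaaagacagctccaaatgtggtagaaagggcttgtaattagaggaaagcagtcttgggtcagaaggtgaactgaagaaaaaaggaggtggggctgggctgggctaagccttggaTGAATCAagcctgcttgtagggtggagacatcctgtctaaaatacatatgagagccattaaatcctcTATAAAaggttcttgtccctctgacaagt
Flg2 (chr3:93197023-93197272, plus strand): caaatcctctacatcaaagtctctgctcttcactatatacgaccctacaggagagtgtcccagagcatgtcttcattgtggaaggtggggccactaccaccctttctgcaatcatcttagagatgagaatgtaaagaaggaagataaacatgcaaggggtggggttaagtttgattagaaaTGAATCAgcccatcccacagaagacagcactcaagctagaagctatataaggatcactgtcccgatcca
Lce1m (chr3:93019062-93019311, minus strand): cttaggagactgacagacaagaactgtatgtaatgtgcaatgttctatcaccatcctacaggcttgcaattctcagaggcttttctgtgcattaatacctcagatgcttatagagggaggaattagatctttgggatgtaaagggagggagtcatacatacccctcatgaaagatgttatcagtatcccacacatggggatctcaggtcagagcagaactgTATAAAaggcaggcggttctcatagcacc
Lce3d (chr3:92957140-92957389, plus strand): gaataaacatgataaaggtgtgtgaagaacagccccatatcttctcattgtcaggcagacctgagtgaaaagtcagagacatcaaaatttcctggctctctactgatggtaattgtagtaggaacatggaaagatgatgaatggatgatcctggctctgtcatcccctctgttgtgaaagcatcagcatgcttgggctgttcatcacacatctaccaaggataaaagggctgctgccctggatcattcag
In the Sprr2 promoters the TGANTCA letters began 182 to 198 bases before the start, in the Sprr1 promoters 111 to 146 and in the S100-fused type 69 to 103. Among members with these letters, the Sprr1 and Sprr2 genes, Rptn and Crnn had positive log2 fold changes in DNCB against control. Flg2, Flg and Ivl had negative ones. Among members without them, Sprr2a1, Sprr2a2, Sprr2a3 and the Lce3 genes had positive changes and the Lce1 genes negative ones. Whether these letters play a part in the differences was not tested.

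Some members differed between the MSC groups and control, in comparisons that share the control libraries with that of DNCB. Between scMSC and control 12 members were called, 3 higher and 9 lower in scMSC, where 9.32% of all genes were called (5.12% higher and 4.2% lower). The 3 higher were Crnn, Sprr1a and Sprr4, and the 9 lower were 5 Sprr2 genes, Lce3a and 3 Lce1 genes. Sprr2b was lower in scMSC than in control, at -3.44 ± 0.39, and so was Sprr2d, at -2.91 ± 0.43 (adjusted p = 0.000986 and 0.00183). All 14 Lce1 genes had a negative fold change against control in scMSC, with a median of -0.83, and Lce1m (-1.87 ± 0.48), Lce1j (-1.26 ± 0.37) and Lce1l (-1.05 ± 0.32) were called (adjusted p = 0.0213, 0.0372 and 0.0416). The calls of Lce1j and Lce1l were lost with limma, with scaling by library size alone and without control replicate 2, control replicate 3, DNCB replicate 3, scMSC replicate 2 or scMSC replicate 3, among other settings, and that of Lce1m without control replicate 3 or scMSC replicate 2. All 3 were lost when only the scMSC and control libraries were fitted. Sprr4, at 1.76 ± 0.54 (adjusted p = 0.0441), lost its call without any 1 of 8 libraries and with no filter on low values, and without scMSC replicate 2 its difference was 1.07 (adjusted p = 0.218). Without control replicate 1, whose Lce1 levels were the lowest of that group, 19 members were called.

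Between scivMSC and control 6 members were called, 4 higher and 2 lower in scivMSC, against 6.85% of all genes (3.5% and 3.35%). The higher ones were Sprr1a, Crnn, Sprr2k and Rptn (1.80 ± 0.43, adjusted p = 0.0203). The lower ones were Lce1m (-2.05 ± 0.48, adjusted p = 0.0195) and Sprr2b (-1.48 ± 0.36, adjusted p = 0.0219). Without scivMSC replicate 2, only Sprr1a, Crnn and Sprr2k were called, and the adjusted p was 0.0755 for Rptn, 0.0780 for Lce1m and 0.0598 for Sprr2b. The calls of Rptn and Sprr2b were also lost without control replicate 3 and when only the scivMSC and control libraries were fitted, and that of Sprr2b without scivMSC replicate 1.

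Between scMSC and scivMSC no member was called with edgeR, while 19 had an unadjusted p under 0.05 and DESeq2 called 9. Over all tested genes the shares were 0.00457% called with edgeR, 7.5% with an unadjusted p under 0.05 and 0.521% called with DESeq2. The test did not separate the MSC groups, which does not show that they were alike.

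Other cornified envelope genes were read from a list of 23, of which 22 were tested. In DNCB 2 were called higher and 5 lower than in control, 1 higher and 7 lower than in scMSC, and 0 higher and 3 lower than in scivMSC, where 14.2%, 8.5% and 5.46% of all tested genes were called. Their median log2 fold change in the 3 comparisons was -0.04, -0.38 and -0.56. Loricrin (Lor), the main protein of the envelope by mass, had 1167, 1907 and 2379.6 FPKM in control, 291, 369.8 and 277 in DNCB, 1589.7, 1015 and 602 in scMSC and 1805, 1241 and 1189 in scivMSC. Like the Lce1 genes it was lower in DNCB, at -2.71 ± 0.36, -1.79 ± 0.35 and -2.18 ± 0.36 (adjusted p = 0.000948, 0.00841 and 0.00719). Scel, the gene of the precursor protein sciellin, was lower in all 3, at -1.08 ± 0.25, -1.51 ± 0.25 and -1.22 ± 0.25 (adjusted p = 0.00893, 0.00398 and 0.0161). Tgm3, an enzyme that cross-links envelope proteins, was above control in DNCB by 1.91 ± 0.36 (adjusted p = 0.00383) and was not called against scMSC or scivMSC. Prr9, a small proline-rich gene of the same complex, was lower in DNCB than in scMSC and scivMSC, at -5.18 ± 0.93 and -3.43 ± 0.86 (adjusted p = 0.00575 and 0.0353), with 828, 2991 and 965 FPKM in scMSC and 37.5, 22.02 and 78.4 in DNCB. The call of Prr9 against scivMSC was lost without any 1 DNCB library or scivMSC replicate 1 or 3, that of Scel against scivMSC when replicate 2 or 3 of DNCB, or 1 of scivMSC, was left out, and that of Scel against control with limma, with scaling by library size alone and without control replicate 3.

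Of 28 transcription factors known for roles in epidermal differentiation, all tested, 4 were called higher and 3 lower in DNCB than in control. Against scMSC 2 were higher and 3 lower, and against scivMSC 1 was higher and 1 lower. Over all tested genes 14.2%, 8.5% and 5.46% were called in these comparisons. Gata3, a factor of keratinocyte differentiation, stood at 18.6, 19.9 and 22.5 FPKM in control, 9.44, 11.3 and 9.81 in DNCB, 26.6, 35.4 and 35.6 in scMSC and 27.9, 20.3 and 27.1 in scivMSC and was lower in DNCB in all 3 comparisons (-1.18 ± 0.18, -1.70 ± 0.18 and -1.31 ± 0.18, adjusted p = 0.00137, 0.00132 and 0.00415). Fosl1, a subunit of AP-1, had 0.370, 0.270 and 0.316 FPKM in control, 5.18, 2.24 and 2.95 in DNCB, 0.171, 0.716 and 0.329 in scMSC and 0.430, 1.42 and 0.286 in scivMSC. Fosl1 exceeded control in DNCB by 3.22 ± 0.69 and scMSC by 3.02 ± 0.68 (adjusted p = 0.00684 and 0.0157). Junb, its partner in AP-1, was higher than control by 1.36 ± 0.27 and than scivMSC by 1.13 ± 0.27 (adjusted p = 0.00504 and 0.0302). Nfe2l2, an activator of antioxidant genes, was higher than scMSC by 1.17 ± 0.16 (adjusted p = 0.00220). Gata3 against control fell short of the required fold with limma and with scaling by library size alone, Fosl1 against scMSC lost its call without DNCB replicate 1 or scMSC replicate 3, and Junb against scivMSC lost its call without any 1 DNCB library or scivMSC replicate 1 or 3.

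Several marker lists of other cell types and states differed between the groups. The T cell, macrophage and monocyte, and mast cell lists each had 1 gene called between DNCB and control. These lists had 7, 8 and 6 tested genes, and 14.2% of all tested genes were called. The 4 stress keratins Krt6a, Krt6b, Krt16 and Krt17 summed to 484 to 553 FPKM in control, 7079 to 8807 in DNCB and 683 to 1453 in scMSC. In scivMSC they summed to 1208, 4581 and 1152, so replicate 2, the library with high Lce3, Sprr1b and Sprr2g, was also the highest in these keratins. The 16 hair shaft and inner root sheath genes, of which Tchh is also among the envelope partners, summed to 14.4, 357 and 5.39 in control, 316 to 1021 in DNCB, 8081 to 23247 in scMSC and 2875 to 7233 in scivMSC. Sprr1a, Crnn, Sprr4 and Crct1 had their highest group mean in scMSC, as did these genes. The highest library in the list and in each of those members was scMSC replicate 2. In DNCB against scMSC 12 of the 16 hair genes were called lower and 0 higher, where 4.66% and 3.84% of all tested genes were. The part of stress keratinocytes or hair follicles in the members' differences was not tested.

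**Figure D5:**
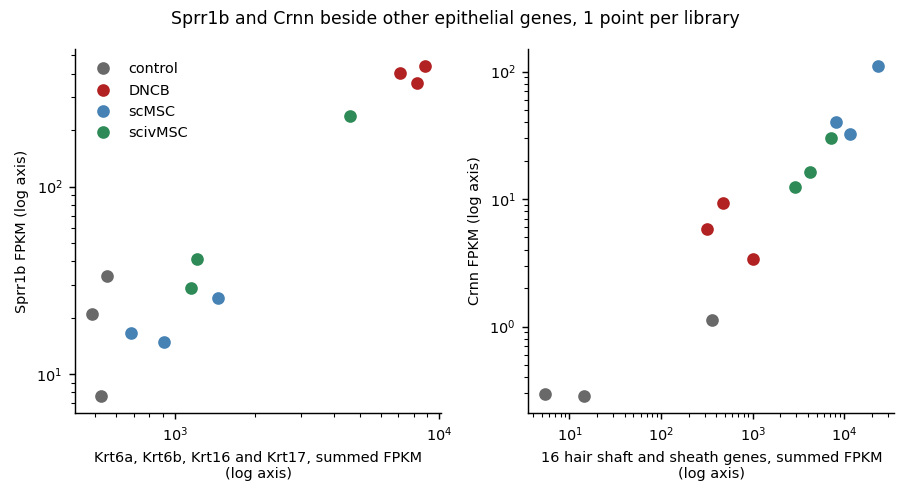
FPKM of Sprr1b against the summed FPKM of 4 stress keratins (left) and FPKM of Crnn against the summed FPKM of 16 hair shaft and inner root sheath genes (right), 1 point per library, all axes logarithmic. The DNCB libraries and scivMSC replicate 2 lay at the upper right for Sprr1b, and the scMSC and scivMSC libraries lay at the upper right for Crnn.

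The basal keratinocyte list (8 genes) summed to 2204 to 3063 FPKM in control and 8229.9 to 10507 in DNCB. The suprabasal list (9 genes) summed to 5389.6 to 12775 and 6381 to 10599. Of its 8 tested genes, 3 passed as below control in DNCB and 0 as above it (median log2 fold change -0.34). Over all tested genes, 7.57% were called lower and 6.59% higher in DNCB than in control. Lor, given above among the envelope partners, is also in the suprabasal list and is among its lower calls. Against scMSC the suprabasal calls were 2 downward and 0 upward, and against scivMSC also 2 and 0. In these comparisons 4.66% and 3.13% of all tested genes were called lower in DNCB. For the 8 basal genes, calls against control were 2 upward and 1 downward, with a median of 0.47. Krt10, a keratin of the suprabasal layers, differed from control by 0.25 ± 0.37, from scMSC by 0.83 ± 0.37 and from scivMSC by 0.00 ± 0.37, and was not called (adjusted p = 0.684, 0.196 and 1.00). The 11 neutrophil markers summed to 2551 to 3528 in DNCB and 122 to 209.7 in control, 17.3 to 69.2 in scMSC and 38.6 to 187 in scivMSC, with Ly6g and Cxcr1 at 0 in every library of those 3 groups. The sebaceous list (9 genes) summed to 628 to 797 in control and 144 to 166 in DNCB, and the fibroblast and matrix list (7 genes) to 237 to 354 and 1945 to 2258. Krt4, Krt13 and Krt76, which mark other stratified epithelia such as the oral lining, summed to at most 0.751 FPKM in any library. How far a different mix of cells sets the levels of the members was not tested.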

How the data were processed

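RNA of dorsal skin was sequenced in 12 libraries, 3 mice in each of 4 groups. Per gene, the authors deposited FPKM and estimated counts, the latter as whole numbers that were not normalized between libraries. The submitters' processing notes name HISAT2 2.0, StringTie 1.3.0, Bowtie 0.12.2 and the build mm8, whereas all 46 members have the start and end of GRCm38 (GENCODE M21). The strand setting of the counting was not given in the sources used here. The estimated counts were tested in edgeR 4.0.16 (R 4.3.3) by the quasi-likelihood F-test with TMM factors (0.887 to 1.06) and the 4 groups in 1 model, over the 21890 genes averaging 0.1 FPKM or more; standard errors were derived from F. Its common biological variation (BCV) was 0.420. A fragment was taken as 4 estimated counts, and the floor was 3 fragments, a limit for counting error alone. Alternatives were limma 3.58.1 on log2(FPKM + 0.1), DESeq2 1.42.0, other scalings and filters, counts divided by 4, the 6 libraries compared alone, a replicate block and leaving out each library. The steps were tested on simulated data. The members and gene lists were chosen with earlier results of these data known, so no list was tested as a set. Named members were the 8 single genes, the 3 most abundant of each subfamily and called members (at most 6 per subfamily, else the 2 largest changes); Sprr2g, Lce1g and Lce1j were chosen after their values were seen. From each partner list at most 4 called genes per direction were named, by mean FPKM, and of these a part is given; Krt10 and, for scMSC, Scel were chosen after their values were seen. Promoters came from RefSeq (GRCm38.p6). Python 3.11.15, pandas 2.3.3, numpy 2.4.6 and matplotlib 3.10.9 were used.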

Additional observations from a re-analysis of the deposited data

How the results depend on the processing

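Among members past an adjusted p of 0.05, no direction reversed in any setting. Against control, 29 of 30 called members kept an adjusted p under 0.05 with each library left out, and Sprr2h did not. Against scMSC 25 of 38 did, and 13 were lost without at least 1 library. Against scivMSC 15 of 24 did. Some members not past 0.05 in the main fit passed it with a library left out. They were 8 of 14 against control, 3 of 6 against scMSC and 14 of 20 against scivMSC. In at least 1 of the other settings 10 of 14, 4 of 6 and 9 of 20 passed it. The number of members called between DNCB and control ran from 29 to 36 with 1 library left out and from 30 to 40 in the other settings, from 29 to 39 and 37 to 40 between DNCB and scMSC, and from 16 to 33 and 21 to 31 between DNCB and scivMSC. Between scMSC and control it was 12 and ran from 6 without scMSC replicate 2 to 19 without control replicate 1, and was 7 without scMSC replicate 3. Between scivMSC and control it was 6 and ran from 3 to 7 with 1 library left out. Between scMSC and scivMSC DESeq2 gave 9 in place of 0. Scaling by library size alone moved the median of all genes to 0.20 against control, from 0.02, and left 30 members called with the same split of 12 higher and 18 lower. The Lce3 minus Lce1 difference between DNCB and control was 5.25, and 4.83 at a pseudocount of 1; between DNCB and scMSC it was 6.93, and 5.35 at a pseudocount of 1, 7.61 at 0.01 and 6.46 from summed FPKM. The Sprr2 minus Lce1 difference between DNCB and control was 5.97, and 5.30 at a pseudocount of 1, 6.40 at 0.01 and 5.29 from summed FPKM; between DNCB and scMSC it was 6.80, and 5.62, 7.40 and 5.61 in the same order. Against scivMSC the Lce3 minus Lce1 difference was 5.12 and ran from 3.96 without scivMSC replicate 1 to 6.42 without scivMSC replicate 2. The Sprr2 minus Lce1 difference was 5.33 and ran from 4.79 to 6.11 with the same libraries left out. No source used here says what a replicate number shares between groups. Same-numbered libraries deviated together by a correlation over 0.1 in 3 of 18 pairs, which cannot settle whether mice were paired. With the replicate number as a block, 30, 37 and 21 members were called for DNCB against control, scMSC and scivMSC, and 8, 6 and 0 in the remaining comparisons. The cause of these shifts was not tested. Depth limits Sprr3, Sprr2c-ps, Sprr2j-ps, Sprr2k, Lce3a and Lce3b, which stood at or under 3 fragments in every library of at least 1 group.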
